A study of Mus musculus with 9 samples.

Results

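The regions described here are 562 sites that carried a peak in exactly 1 of 7 NLRC5 ChIP-seq peak lists and lay near the start of a protein-coding gene. They were chosen by merging the peaks of all 7 lists that overlapped by at least 1 bp, which turned 8593 peaks into 7980 sites, and by keeping sites on chromosomes 1 to 19 that held peaks of a single list and overlapped the 1000 bp on either side of a coding gene start. On chromosomes 1 to 19 there were 7936 sites, of which 7610 came from a single list. The 562 sites are thus selected on their position and on their absence from the other lists, and the remaining 7048 single-list sites served for comparison.

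The study mapped where the coactivator NLRC5 sits on chromatin of mouse T cells, and asked which promoters it occupies and whether this needs RFX5. T cells of WT, Nlrc5F/F and Nlrc5-/- mice on a C57Bl/6 (H2b) background and of Rfx5-/- mice on a mixed Sv129 and C57Bl/6 (H2b) background were purified with magnetic beads for CD4 and CD8, from mice 6 to 12 weeks old, with 5 mice pooled for each genotype. Fragments were precipitated with a custom rabbit antibody raised against the N-terminal part of mouse NLRC5. The 7 lists are those of 5 pseudo-replicates (A to E) drawn from the reads of the WT library, of the Nlrc5F/F library, whose floxed Nlrc5 gene is still functional, and of the Rfx5-/- library, and all were called against the library of Nlrc5-/- cells, which lack NLRC5. There was 1 library for each genotype, so the spread between animals is not known, and the WT lists are not replicates of the genotype but parts of a single library. The lists give no read number for a peak, only a score, the −log10 of the p-value given by the peak caller.

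NLRC5 is a nuclear member of the NLR family and does not bind DNA itself. It is recruited to the SXY module of MHC class I promoters by an enhanceosome made of the RFX complex, which contains RFX5 and occupies the X1 box, of CREB and ATF factors at the X2 box, and of NF-Y at the Y box, whose core reads CCAAT. CIITA uses the same factors at MHC class II promoters.

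The sites are short stretches of reference sequence, and the strongest ones show what the lists called. The following 7 sequences are, for each list, the site with the highest score among those lying outside annotated exons. They are given from the forward strand of GRCm38 as in the RefSeq assembly, and capitals mark any match, on either strand, to the Y box core CCAAT, to a part of the CRE site in the X2 box (TGACG), to the core of an RFX half-site (GCAAC) or to an Sp1 site (GGGCGG).
Phkg2, WT A (chr7:127572596-127572713): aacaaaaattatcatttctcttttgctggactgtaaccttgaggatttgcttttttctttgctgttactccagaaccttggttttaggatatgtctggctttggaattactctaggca
Pno1, WT B (chr11:17211679-17211824): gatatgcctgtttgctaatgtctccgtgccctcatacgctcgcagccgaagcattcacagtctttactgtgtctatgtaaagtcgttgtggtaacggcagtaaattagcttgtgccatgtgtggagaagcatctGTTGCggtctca
Rtn3, WT C (chr19:7483547-7483657): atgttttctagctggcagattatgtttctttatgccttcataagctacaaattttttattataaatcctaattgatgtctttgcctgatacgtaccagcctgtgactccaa
Fbrs, WT D (chr7:127478236-127478337): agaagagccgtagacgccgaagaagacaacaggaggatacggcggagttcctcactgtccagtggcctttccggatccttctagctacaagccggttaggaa
Olfr875, WT E (chr9:37772463-37772574): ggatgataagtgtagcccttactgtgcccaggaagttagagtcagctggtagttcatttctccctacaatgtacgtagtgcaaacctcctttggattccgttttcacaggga
Coasy, Nlrc5F/F (chr11:101082088-101082181): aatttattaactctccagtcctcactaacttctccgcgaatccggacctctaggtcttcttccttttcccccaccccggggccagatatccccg
Nostrin, Rfx5-/- (chr2:69136525-69136639): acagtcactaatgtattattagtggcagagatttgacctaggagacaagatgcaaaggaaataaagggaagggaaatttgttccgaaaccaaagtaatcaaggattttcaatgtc
Of these 7 sequences, the Pno1 site alone held one of the 4 motifs, a GCAAC read on the reverse strand. Their GC content ran from 34.2% at Rtn3 to 54.9% at Fbrs.

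Each list contributed a similar number of sites near coding gene starts, while the number of its other single-list sites varied far more. WT A gave 64 sites near a start of 328 single-list sites, a share of 19.5% (95% exact binomial interval, 15.4% to 24.2%). In WT B there were 75 of 392, or 19.1% (15.4% to 23.4%). WT C gave 97 of 1241, or 7.82% (6.38% to 9.45%). These 3 lists thus differed more in the sites away from starts (264, 317 and 1144) than in those near them. WT D gave 68 of 872, or 7.80% (6.11% to 9.78%). WT E gave 98 of 1021, or 9.60% (7.86% to 11.6%). In the Nlrc5F/F list 85 of 1859 single-list sites lay near a start, or 4.57% (3.67% to 5.62%). The Rfx5-/- list held 75 of 1897, or 3.95% (3.12% to 4.93%), the lowest share of the 7. The intervals cover counting error only.

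**Figure D1:**
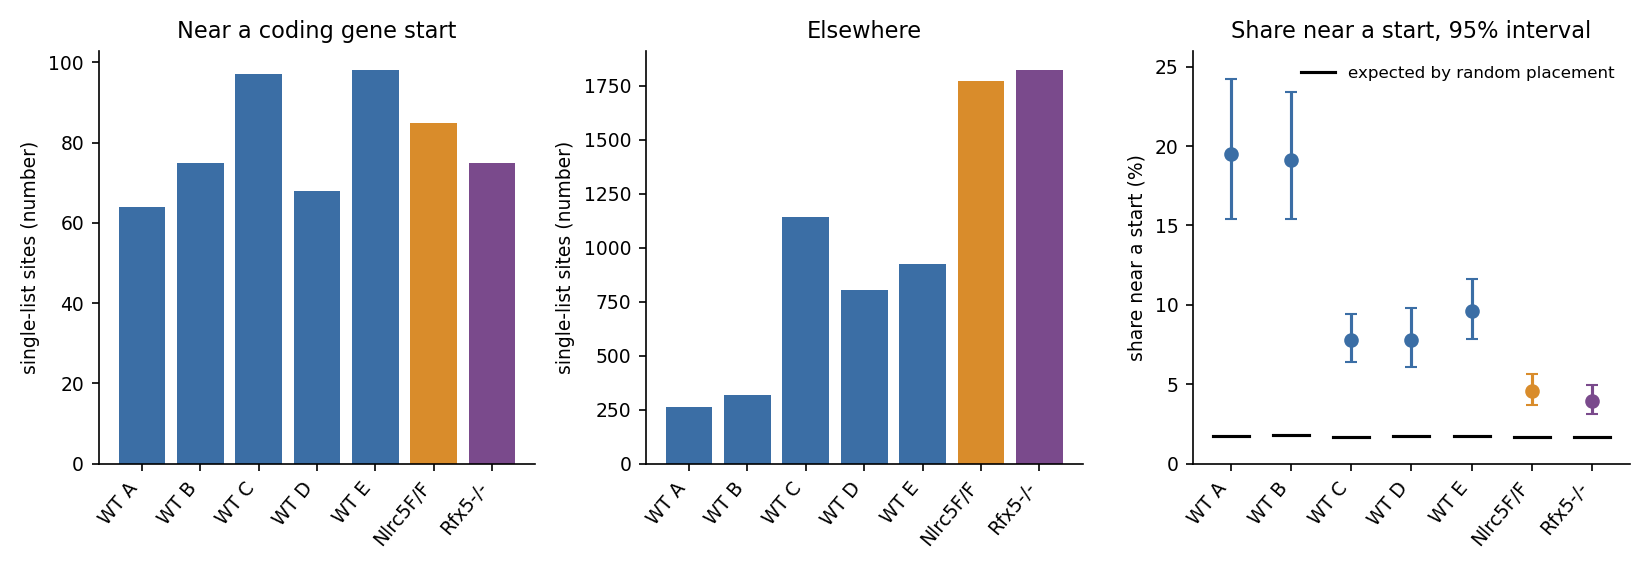
Single-list sites by list: the number near a coding gene start (left), the number elsewhere (middle) and the share near a start in percent with its 95% exact binomial interval (right), where black lines give the share expected by random placement. Between 64 and 98 sites lay near a start in each list, against 264 to 1822 elsewhere, and every share was above its line.

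Had the sites of a list been placed at random on their own chromosomes, with their widths kept, between 1.69% and 1.78% of them would have lain near a coding gene start. The observed share was 11.1 times this value in WT A and 10.8 times in WT B. It was 4.57 times in WT C, 4.45 times in WT D and 5.55 times in WT E. The ratio was lower in the other genotypes, at 2.69 in the Nlrc5F/F list (95% interval, 2.16 to 3.31) and 2.34 in the Rfx5-/- list (1.85 to 2.92). For all 7 lists together 131 sites were expected near a start and 562 were found, a ratio of 4.30 (3.97 to 4.66). Random placement takes no account of which parts of the genome can be mapped.

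The WT library had a higher share of single-list sites near coding gene starts than either of the others. Pooled over its 5 lists, the share was 10.4% (402 of 3854). It exceeded that of the Nlrc5F/F library by 5.86 percentage points (95% interval, 4.50 to 7.21), with an odds ratio of 2.43 and an adjusted p of 1.26e-14 by the two-sided Fisher's exact test. It exceeded that of the Rfx5-/- library by 6.48 points (5.17 to 7.78), with an odds ratio of 2.83 and an adjusted p of 2.58e-18 by the same exact test. Between the Nlrc5F/F and the Rfx5-/- library, that is, with and without RFX5, the difference was 0.619 points (−0.674 to 1.91) and did not pass the test (exact adjusted p = 0.374). The p-values compare libraries by their counts of sites, taken as independent, and do not include the spread between lists. Within the WT library alone the shares ran from 7.80% to 19.5%, a wider range than either difference. The paper states a much higher minimum of reads for the WT library than for the others, with WT pseudo-replicates of equal read number. The part of read depth in the shares was not tested. With 1 library per genotype, the genotype, the library and its depth, and for Rfx5-/- also the mixed strain background, cannot be told apart.

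Some properties of the lists moved with these shares. The narrowest peak was 118 bp wide in WT A and 124 bp in WT B, against 102 bp, 95 bp and 98 bp in WT C, D and E, 94 bp in the Nlrc5F/F list and 95 bp in the Rfx5-/- list. The lists with the widest minimum were also the shortest, at 459 and 529 peaks in WT A and B, against 1043 to 1436 in WT C, D and E, 1949 in the Nlrc5F/F list and 1970 in the Rfx5-/- list. The part of the peak width and of the list length in the shares was not tested separately. When only peaks of at least 125 bp were used in every list, an alternative chosen after the data were seen, the shares were 23.8% in WT A, 26.4% in WT B, 13.4% in WT C, 12.5% in WT D and 11.2% in WT E, and 4.72% in the Nlrc5F/F list and 4.16% in the Rfx5-/- list. The difference between the WT and the Nlrc5F/F library was then 11.6 points, and that between the WT and the Rfx5-/- library 12.2 points.

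The rule also bore unequally on the lists, because each WT list had 4 others from the same library in which its sites could recur. Between 73.9% and 87.6% of the sites of a WT list were found in that list only, against 95.7% for the Nlrc5F/F list and 97.3% for the Rfx5-/- list. Counted over all sites with a peak of a list, shared or not, the share near a coding gene start was 12.6% for the WT library (528 of 4175), 6.02% for the Nlrc5F/F library (117 of 1942) and 4.72% for the Rfx5-/- library (92 of 1950), in the same order as for the single-list sites. Sites found in 2 or more lists, which are few, had a higher share near a start: 126 of 326 did, a share with a 95% exact interval of 33.3% to 44.2%, against 7.39% (6.81% to 8.00%) of the single-list sites. The share was 33.0% for sites of 2 lists (74 of 224), 53.5% for 3 lists (23 of 43), 42.9% for 4 lists (9 of 21) and 52.6% for 5 or more lists (20 of 38).

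Single-list sites gathered close to the start itself. In the ring from 1000 to 2000 bp their share was 1.58 times that of random placement over all 7 lists, from 2000 to 5000 bp 1.06 times, and from 5000 to 10000 bp 1.09 times. Of the 562 sites, 85 (15.1%) covered the annotated start, 299 (53.2%) lay upstream and 178 (31.7%) downstream, and 290 (51.6%) came within 250 bp of it. The median distance was 232 bp, and by library it was 200 bp for WT, 309 bp for Nlrc5F/F and 289 bp for Rfx5-/-. At the edge of the rule, the 3 sites just inside lay 993 bp from Colec11 (Rfx5-/-, score 4.46), 989 bp from Gm8439 (WT B, 4.50) and 985 bp from Ino80b (Nlrc5F/F, 6.21). The 3 nearest sites outside lay 1016 bp from S100a7a (WT D, 4.36), 1017 bp from Uvrag (Rfx5-/-, 6.68) and 1022 bp from Tut4 (WT B, 4.05).

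**Figure D2:**
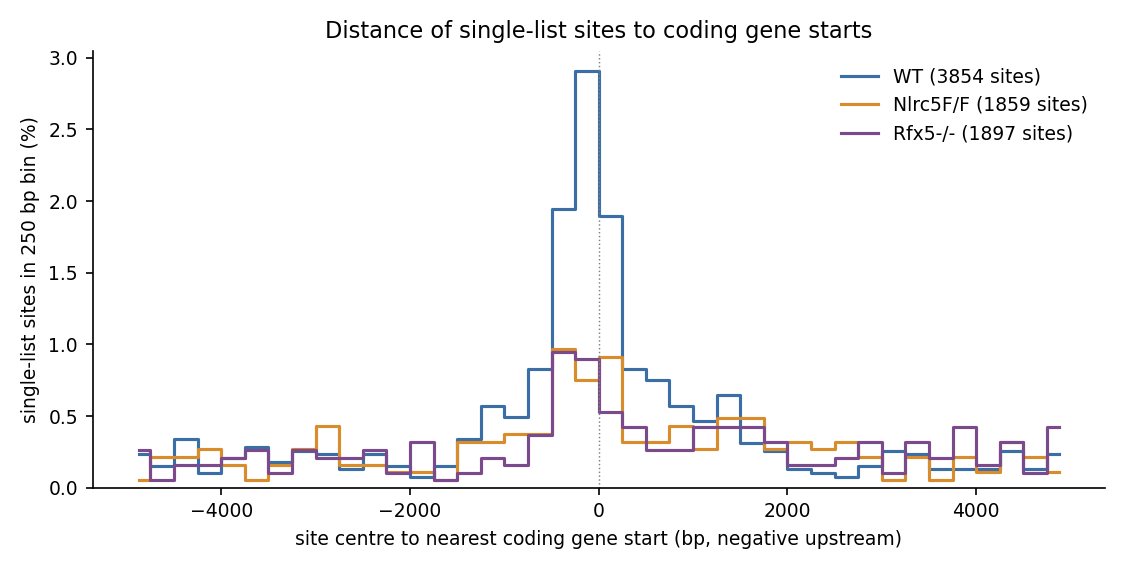
Share of the single-list sites of each library (y axis, percent) in bins of 250 bp by the distance of the site centre to the nearest coding gene start (x axis, bp, negative upstream). All 3 libraries rise around the start and are flat beyond 2000 bp, and the WT line is the highest at the start.

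Each site was put in the first class it touched of coding exon (51 of the 562 sites), UTR exon (141), exon of a transcript that is not coding (42), intron (96) and sequence outside coding genes (232). A site could fall in the window of more than 1 gene, and this was so for 89 sites. In 81 cases (14.4%) the site lay in the windows of genes on both strands. Of all coding gene starts, 11.2% (2321 of 20807) have a start on the opposite strand within 1000 bp. The latter share counts starts and not sites, so the 2 shares cannot be compared directly. By chromosome the number of sites ran from 13 to 52, with 52 on chromosome 11, 51 on chromosome 2 and 45 on chromosome 7. The ratio to random placement was lowest on chromosome 6 (3.15) and highest on chromosome 19 (6.05).

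The scores of the sites near gene starts were low. Their median was 4.53 and their highest value 10.3, where the caller's threshold of 0.001 corresponds to 3. In WT A the median was 5.08 near a start and 4.66 elsewhere. In WT B it was 4.88 near a start and 5.30 elsewhere, the reverse order. In WT C it was 4.48 against 4.17, in WT D 4.36 in both sets, and in WT E 4.48 against 4.28. It was 4.82 against 4.28 in the Nlrc5F/F list and 4.46 in both sets in the Rfx5-/- list. The quartiles overlapped in every list. By comparison, the median top score of the 126 sites near starts that recurred in 2 or more lists was 6.95.

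**Figure D3:**
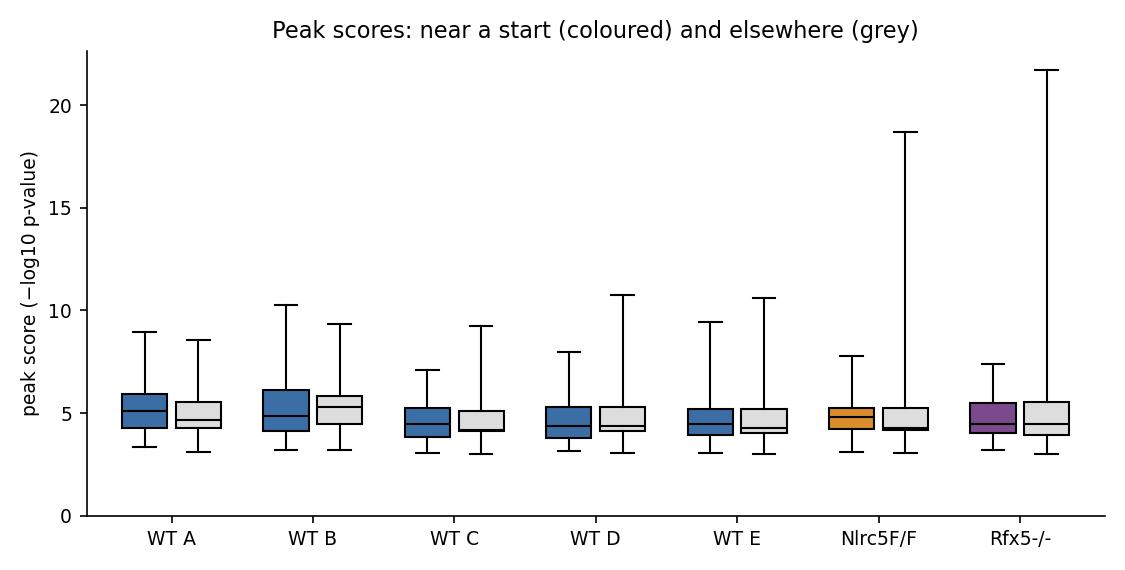
Peak scores (y axis, −log10 p-value) of single-list sites in each list, near a coding gene start (coloured boxes) and elsewhere (grey boxes). Boxes span the quartiles with a line at the median and whiskers reach the lowest and highest score, and the 2 sets overlap in each list, with the highest score near a start at 10.3.

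A higher score did not go with a steadily higher share near gene starts. In the WT library the share was 11.6% for scores from 3 to 4, 9.84% from 4 to 5, 9.05% from 5 to 6 and 12.4% above 6. In the Nlrc5F/F library it was 4.25%, 4.09%, 5.52% and 4.44% in the same bins. In the Rfx5-/- library it was 3.74%, 3.99%, 3.30% and 6.47%, the last resting on 9 of 139 sites. Many sites shared the same score to the last digit, and the commonest value took between 11.3% (WT A) and 28.3% (Rfx5-/-) of the single-list sites of a list, so scores rank the sites only coarsely.

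The sites with the highest scores lay at genes of varied function. In WT A the first was 627 bp upstream of Phkg2, the catalytic subunit of a phosphorylase kinase, with a score of 8.96. The second, in the histone cluster of chromosome 13, lay 203 bp into Hist1h3f and 863 bp upstream of Hist1h2bh (8.55). The third lay 62 bp upstream of Emp3, a membrane protein gene (8.43). All 3 were among the 4 highest single-list sites of WT A.

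Among the single-list sites near starts, WT B held the highest score, 10.3, at a site 111 bp upstream of Pno1, a factor of small ribosomal subunit assembly. It was followed by a site 901 bp upstream of Hsd17b6, a steroid dehydrogenase (8.33), and by a site over the start of Atg16l1, a gene of autophagy (8.31). In WT C the leading sites were 266 bp upstream of Rtn3, a reticulon of the endoplasmic reticulum (7.09), 382 bp into Tpgs1, a subunit of tubulin polyglutamylase (7.03), and 259 bp into Tti2, which helps to assemble PI3K-like kinases (6.57). They ranked 13th, 41st and 48th among all single-list sites of WT C, so that the highest single-list sites of WT C lay away from coding gene starts.

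In WT D the first site covered the start of Lrwd1, a partner of the origin recognition complex, 6 bp from the divergent start of Alkbh4 (7.99). It was followed by sites 862 bp upstream of Fbrs (7.31) and 314 bp into Nmi, whose product binds STAT proteins (6.85). In WT E the first was in an intron 606 bp into the olfactory receptor gene Olfr875 (9.43). The next were 172 bp upstream of Atp6v0b, a subunit of the vacuolar proton pump (7.24), and over the start of AC109138.7, 49 bp into the cytokine gene Clcf1 (7.24).

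In the Nlrc5F/F list the leading sites were 384 bp upstream of Coasy, the coenzyme A synthase (7.76), 469 bp into Sptlc1, a subunit of serine palmitoyltransferase (7.25), and 89 bp upstream of Kbtbd7 (7.18). In the Rfx5-/- list they were 335 bp into Scn2a, a neuronal sodium channel (7.39), 725 bp into Nostrin (6.95) and 101 bp upstream of Traf3ip1, a gene of the primary cilium (6.68). Of these 21 sites, that at Nmi alone had a peak of another list within 1000 bp.

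The 562 sites marked the starts of 631 coding genes, or 3.03% of the 20807 tested. Sites with overlapping peaks of different lists were left out by the rule, so only separate sites could mark a gene in more than 1 list. Members of 2 or more lists, at separate positions, were found at 19 genes, and at 12 of these the lists belonged to different libraries. Of the 20807 coding genes, 467 were marked in the WT library, 92 in Nlrc5F/F and 84 in Rfx5-/-. The overlap that these counts alone would give was not computed. These 19 genes shared 30 sites. A peak of another list within 1000 bp was found for 38 of the 562 sites (6.76%) and for 111 of the 7048 other single-list sites (1.57%).

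Herpud1, a gene of protein degradation from the endoplasmic reticulum, had a site in the Nlrc5F/F list 402 bp upstream (score 5.05) and a site in the Rfx5-/- list 14 bp upstream (5.43). Eif3k, a translation initiation factor, and Map4k1, a kinase of T cell receptor signalling, share a divergent promoter, where the Nlrc5F/F list had a site between the starts (4.89) and WT A a site 88 bp into Map4k1 (5.13). At Mroh1 the Rfx5-/- list had a site 378 bp upstream (6.68) and WT D one 125 bp upstream (5.31). Of such starts, marked in 2 libraries, the sites at Herpud1, Eif3k, Mroh1 and Osbpl11 that lie outside exons are shown, with build, strand and capitals as above.
Herpud1, Nlrc5F/F (chr8:94385943-94386036): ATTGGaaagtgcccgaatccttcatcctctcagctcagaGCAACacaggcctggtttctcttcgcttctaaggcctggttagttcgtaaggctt
Herpud1, Rfx5-/- (chr8:94386325-94386424): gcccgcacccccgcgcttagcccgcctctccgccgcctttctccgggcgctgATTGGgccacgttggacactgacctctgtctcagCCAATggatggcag
Eif3k, Nlrc5F/F (chr7:28981901-28982011): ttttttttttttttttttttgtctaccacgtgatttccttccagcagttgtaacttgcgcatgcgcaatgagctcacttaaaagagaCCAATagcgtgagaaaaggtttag
Mroh1, Rfx5-/- (chr15:76379765-76379883): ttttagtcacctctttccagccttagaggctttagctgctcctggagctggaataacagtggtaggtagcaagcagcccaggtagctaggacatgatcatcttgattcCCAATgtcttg
Mroh1, WT D (chr15:76380034-76380136): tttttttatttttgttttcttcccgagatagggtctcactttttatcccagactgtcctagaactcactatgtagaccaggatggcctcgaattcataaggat
Osbpl11, Rfx5-/- (chr16:33184934-33185028): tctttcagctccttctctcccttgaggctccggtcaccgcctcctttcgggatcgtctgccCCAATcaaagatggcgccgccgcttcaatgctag
These 6 were picked for display after their letters were seen. Over all 9 such sites that lie outside exons, CCAAT or its reverse complement ATTGG stood in 5, all of them among those shown, with 2 copies in the Rfx5-/- site of Herpud1. The Rfx5-/- sites of Herpud1, Mroh1 and Osbpl11 were found in cells without RFX5.

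The other genes with sites of different libraries were of varied function. WT and Nlrc5F/F sites lay at Dusp28 (656 bp downstream with 4.27, and 844 bp downstream with 5.10), at Rpl34 (216 bp downstream with 3.07, and 760 bp upstream with 4.82) and at Mdn1, an ATPase of large ribosomal subunit assembly (over the start with 7.17, and 567 bp upstream with 4.73). Osbpl11 had an Rfx5-/- site 43 bp upstream (3.19) and a WT E site 487 bp downstream (3.39). Nlrc5F/F and Rfx5-/- sites lay at Mks1, a gene of the cilium (5.15 and 4.49), and at the vomeronasal receptor gene Vmn2r70 (5.22 and 4.99). Within the WT library, separate lists marked Nmi, Rbak with Spdye4b, Mrps7 with Gga3, Dnajb9 and Pdlim7, with scores from 3.10 to 6.85.

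**Figure D4:**
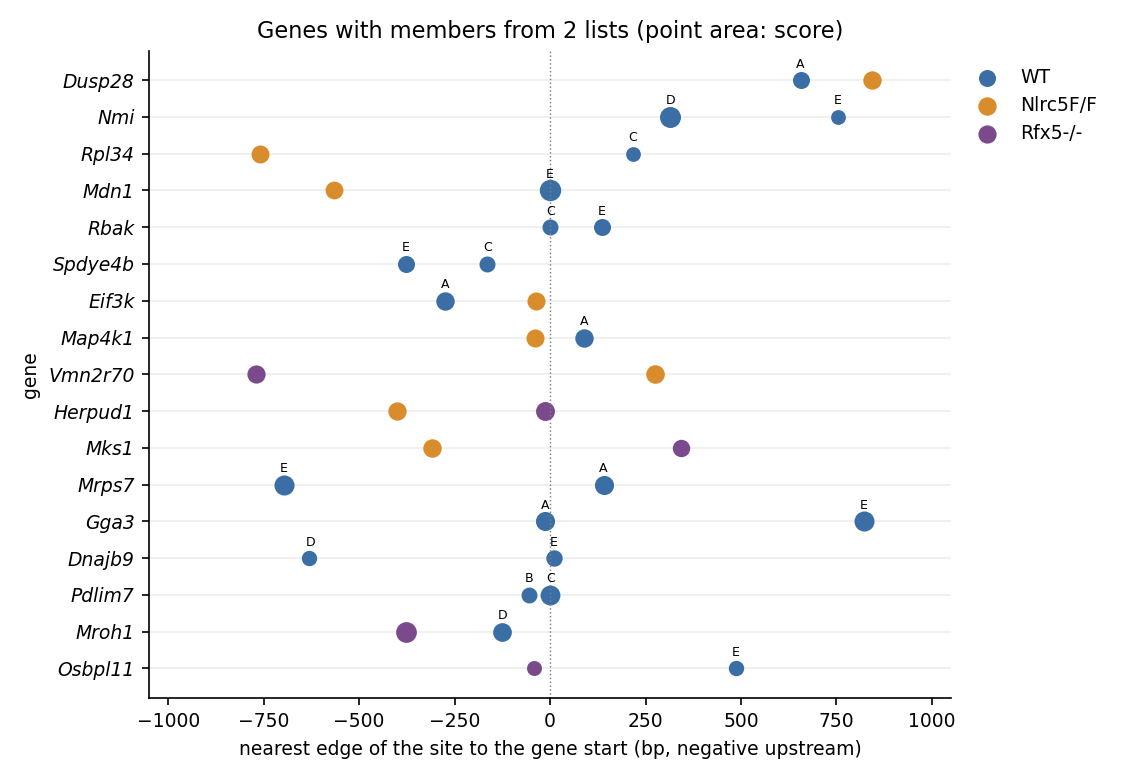
Sites at 17 of the 19 genes (y axis) that had members from 2 lists, placed by the distance of the nearest edge to the gene start (x axis, bp, negative upstream, 0 where the site covers the start). Colour gives the library, letters the WT list and point area the score, and sites of the same gene lie apart, since overlapping peaks would have been merged.

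Another 6 genes had a pair of separate sites from 1 list, namely Scn2a, Naglu and Nup85 in the Rfx5-/- list, S1pr1 in the Nlrc5F/F list, and Tpgs1 and Eny2 in WT C. Named after their values were seen, these genes include the highest of the Rfx5-/- single-list sites near a start, whose partner lay 149 bp upstream of Scn2a (4.46). A recurrent site was near the start of 157 coding genes, and 6 of these 157 also had a single-list site, among them H2-Q6. Of all coding genes, 3.03% (631 of 20807) had a single-list site, and no difference was tested.

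The genes of class I antigen presentation listed here include more than those on which NLRC5 is known to act. Near genes of this list, 12 sites fell outside the rule because they recurred in 5 or more lists. Of 31 annotated genes of class I antigen presentation, 2 (6.45%) had a single-list site, against 3.03% of all coding genes, and both sites came from WT B. One covered the start of Psmb8, an immunoproteasome subunit (score 4.05), and the other lay 276 bp into H2-Q6, a class Ib gene of the Qa family (3.45), whose window also held 2 recurrent sites. The H2-K1, H2-D1, B2m and Tap1 starts had none. No single-list site was found at any of the 10 class II genes or of the 10 genes of the enhanceosome and its coactivators, which include Rfx5, Ciita and Nlrc5.

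In the MHC region of chromosome 17, taken from 34000347 to 37270220, 6 of 20 single-list sites lay near a coding gene start. The share was 7.69% for the single-list sites of the whole chromosome and 7.39% for all. Random placement gave 2.26% on the whole chromosome and was not computed for the region, so its density of gene starts was not taken into account. Besides those at Psmb8 and H2-Q6, the sites near a start were at Atp6v1g2 (WT B, 6.32), Nfkbil1 (Nlrc5F/F, 3.31), Ddx39b (WT E, 4.39) and Dhx16 (WT C, 6.57), the last over the start. The latter 4 are not genes of antigen presentation.

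Of 35 genes of T cell identity, 4 had a site (11.4%, against 3.03% of all coding genes). Gata3, a transcription factor of the T cell lineage, had a Nlrc5F/F site 484 bp downstream of its start (3.59), which covered the start of the nearer gene 9230102O04Rik. Ikzf1, which encodes Ikaros, had a Nlrc5F/F site 133 bp downstream (4.28). S1pr1, the receptor by which T cells leave lymphoid organs, had Nlrc5F/F sites 633 bp downstream (4.78) and 712 bp upstream (3.75). Cd5, a surface receptor of T cells, had a WT E site 869 bp upstream (3.39). The starts of Cd3e, Cd4, Cd8a, Lck and Zap70 had none, nor did those of 22 interferon response genes or of the markers listed for B cells, myeloid cells, NK cells and erythroid cells. Peak lists do not measure expression and cannot show which cells were present.

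For gene families the counts are given beside the 3.03% of all coding genes that had a site, with no test of a difference. Of 67 histone genes 9 (13.4%) had a site, 3 of them through a single Rfx5-/- site that lay in the windows of Hist1h2bf, Hist1h2ad and Hist1h3d. Of 81 genes of ribosomal proteins 7 (8.64%) had one, among them Rplp2 in WT A (5.54, over the start) and Rps25 in WT C (6.07, 799 bp downstream). Of 388 Zfp zinc finger genes 17 (4.38%) had a site, of which that over the start of Zfp85 in WT B had the highest score (8.13). Of 1128 olfactory receptor genes, which are silent in most tissues, 12 (1.06%) had a site, and of 329 vomeronasal receptor genes 2 (0.608%) had one. Genes of a family lie in clusters and share windows, so they are not independent.

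The DNA of the sites near gene starts was richer in GC than that of the other single-list sites. Since the rule chose these sites by their position, windows tiled around starts are the closer comparison. In 300 bp windows on the site centres, the median GC content was 50.3% near starts and 39.7% at the other single-list sites, while it was 49.0% over windows tiled every 100 bp across the 1000 bp around all coding gene starts and 58.3% in windows centred on the starts. By library the median was 51.3% for WT, 48.0% for Nlrc5F/F and 47.3% for Rfx5-/-, and at the other sites 40.3%, 39.3% and 38.3%. Repeats masked a median of 7.67% of the windows near starts and 17.7% of the others.

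**Figure D5:**
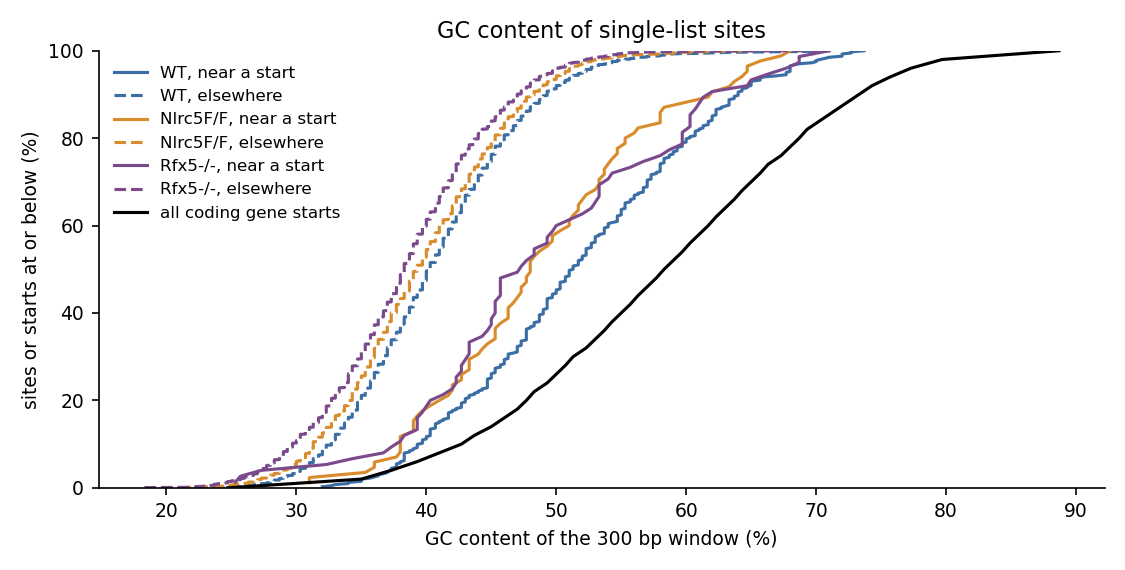
Cumulative share of sites (y axis, percent) by the GC content of their 300 bp window (x axis, percent), for single-list sites near a coding gene start (solid lines) and elsewhere (dashed lines) in each library, and for windows centred on all coding gene starts (black). The solid lines, with medians from 47.3% to 51.3%, lie between the dashed lines, with medians from 38.3% to 40.3%, and the black line, with a median of 58.3%.

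Windows rich in CpG, here with a GC content of at least 50% and at least 0.6 of the CpG number that base composition gives, made up 37.0% of the 562 sites (33.0% to 41.2%) and 0.709% of the other single-list sites. They made up 21.5% of the windows tiled around starts and 48.8% of those centred on them. The share was 39.8% in the WT library (35.0% to 44.8%), 25.9% in the Nlrc5F/F library (17% to 36.5%) and 34.7% in the Rfx5-/- library (24% to 46.5%). The genes that were marked more often had a start of this kind: 487 of the 631 (77.2%) did, against 48.8% of all coding genes, with 78.2% in WT, 76.1% in Nlrc5F/F and 73.8% in Rfx5-/-.

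Parts of the X and Y boxes of the SXY module, and the Sp1 site GGGCGG, were searched as short strings on both strands of the same windows. No string for the S box was searched, although the paper found that box essential for the specificity of NLRC5. CCAAT was present in 32.6% of the 562 sites (183) and in 2731 of the 7048 other single-list sites, which is a higher share than at the 562. In the tiled windows around starts CCAAT was present in 32.6%, and in the windows centred on starts in 36.2%. By library it was present in 27.9% of the WT sites, 36.5% of the Nlrc5F/F sites and 53.3% (40 of 75) of the Rfx5-/- sites. At the other single-list sites of these libraries the shares were 37.9%, 40.2% and 38.9% in the same order, and no difference was tested. TGACG was present in 25.3% of the 562 sites, in 7.34% of the others, in 14.0% of the tiled windows and in 24.2% of the centred ones, with 25.6% in WT, 24.7% in Nlrc5F/F and 24% in Rfx5-/-. GCAAC was present in 37.7%, 29.3%, 31.9% and 35.1% of the same 4 sets, and GGGCGG in 26.7%, 1.67%, 21.1% and 46.3%.

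The order of X2 and Y box, taken as TGACG followed after 10 to 60 bp by ATTGG in either orientation, was present in 4 of the 562 sites (0.712%, 0.194% to 1.81%), in 0.298% of the other single-list sites, in 0.527% of the tiled windows and in 1.57% of windows centred on coding gene starts. This string is strict, since it was found in 5 of the 12 sites of 5 or more lists at class I genes, so that its absence says little about a site. The 4 sites, named after their values were seen, covered the start of Rad9b (WT B, 5.39) and lay 169 bp upstream of H2afx (Nlrc5F/F, 4.82), 49 bp into Tmed10 (Rfx5-/-, 3.32) and 218 bp upstream of Ebag9 (WT C, 5.30). None of them is a gene of antigen presentation. A match describes the letters only and is not evidence of binding.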

How the data were processed

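Per the labels and the methods, the authors mapped reads to GRCm38 with Bowtie 0.12.7, after base calling with CASAVA 1.8.2, kept uniquely placed reads and called peaks with MACS2 2.0.10.20130520 at p = 0.001, without a shift model, with Nlrc5-/- reads as the control. This threshold was a relaxed one, and the authors then filtered the peaks by reproducibility between pseudo-replicates, which left few of them. The WT lists used here hold the peaks from before that filter. The deposited score is the −log10 p-value of a peak, a unit taken from the lowest scores (3.01 to 3.19), and the deposited lists hold no read counts, so depth per peak is unknown. The labels of the series describe 9 samples, and the Nlrc5-/- library and the full set of WT reads enter here only through the lists made from them.

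BED starts were converted to positions counted from 1. Gene starts came from GENCODE M21 and sequences from the GRCm38.p6 reference. The share expected by random placement was computed exactly over all positions of the same chromosome whose centre base is known. Shares were compared between libraries with the two-sided Fisher's exact test and Benjamini-Hochberg adjustment over 3 pairs, at a threshold of 0.05, with Wald intervals for differences. Scores and sequences were described without a test, because position and list chose the sites. Scripts ran under Python 3.11.15 with scipy 1.17.1, with arrays handled in numpy 2.4.6 and figures drawn in matplotlib 3.10.9. Merging, near calls and placement were tested on simulated data.

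The sites and gene lists were chosen with earlier results of these data known. Named were the genes of the 3 highest sites per list, all genes with sites of 2 or more lists, genes of the class I, class II, enhanceosome and T cell identity lists with a site, and the 3 sites on each side of the 1000 bp limit. Some genes that the rule names are not reported here. Histone, ribosomal, Zfp and receptor examples, genes of the MHC region, genes with a pair of sites from 1 list and genes with the motif pair were named after their values were seen. Alternatives were other windows and starts, other merging rules, a score or width minimum, other placements, and leaving out each WT list.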

Additional observations from a re-analysis of the deposited data

Results flagged for a closer look

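The share of single-list sites near a coding gene start differed between libraries. It was 5.86 percentage points higher in the WT library than in the Nlrc5F/F library, although both carry a functional Nlrc5 gene, and 6.48 points higher than in the Rfx5-/- library, and both differences passed Fisher's exact test, which takes sites as independent and leaves out the spread between lists. The WT lists, all from a single library, ran from 7.80% to 19.5%, a range wider than either difference, and each was above the Nlrc5F/F list (4.57%) and the Rfx5-/- list (3.95%). With 1 library per genotype, genotype, library and read depth cannot be told apart.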

How the results depend on the processing

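Over all alternatives the WT library kept the higher share and passed Fisher's exact test against both other libraries, and the Nlrc5F/F and Rfx5-/- libraries did not pass against each other. No difference between libraries changed its direction or its side of the threshold, although their sizes varied, from 4.30 to 11.6 points (WT and Nlrc5F/F), 4.35 to 12.2 points (WT and Rfx5-/-) and 0.0485 to 0.906 points (Nlrc5F/F and Rfx5-/-). Of the other values, 39 moved outside the reported interval or by over 1.5 times. In the order WT, Nlrc5F/F and Rfx5-/-, the shares near a start were 8.04%, 3.23% and 2.90% with a window of 500 bp (ratios to random placement 8.67, 3.56 and 3.22), 13.1%, 6.94% and 6.22% with 2000 bp (ratios 3.94 and 2.12 for the first pair), 6.72%, 2.42% and 2.37% from 500 bp upstream to 50 bp downstream (ratios 11.8, 4.37 and 4.32, with 349 sites), and 14.0%, 8.02% and 7.33% at every transcript start (ratios 3.37, 1.96 and 1.81). With a score of at least 5 there were 272 sites, shares of 12.0% in WT and 5.64% in Nlrc5F/F (ratios 6.80 and 3.34) and median scores of 5.90, 5.22 and 5.54. With peaks of at least 125 bp, chosen after the data were seen, there were 281 sites, with 16.4% in WT (ratio 9.15). Leaving out each WT list in turn gave 493 to 520 sites. The WT share then ran from 10% to 12.1%, its ratio from 5.78 to 6.94 and its median score from 4.53 to 4.69. The Nlrc5F/F share ran from 4.56% to 4.76%, its ratio from 2.68 to 2.80 and its median score from 4.80 to 4.82. The Rfx5-/- share ran from 4.00% to 4.09%, its ratio from 2.36 to 2.42, and its median score was 4.46 throughout. The differences ran from 5.39 to 7.44 points (WT and Nlrc5F/F), 5.98 to 8.05 points (WT and Rfx5-/-) and 0.503 to 0.769 points (Nlrc5F/F and Rfx5-/-). No paired analysis was possible because each genotype has 1 library.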
